A study of Mus musculus with 13 samples.

Results

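Liver sinusoidal endothelial genes were examined in the livers of Balb/c mice from a study of the long non-coding RNA LL35 (Falcor). The group holds 34 genes that mark or shape the endothelium of the liver sinusoid, chosen by symbol, and all 34 are among the 11779 genes listed for the liver. Livers were collected on day 5 from 3 mice given a control antisense oligonucleotide against firefly luciferase (Luc ASO) and from 3 mice given a mix of ASOs against LL35 (5 by the labels). The ASOs of both groups carried GalNAc, a sugar that is taken up by hepatocytes, so the control livers also received a GalNAc-conjugated ASO and no untreated liver was part of the comparison. The labels give the LL35 dose as 150 mg/kg for each ASO, while the methods of the study give it as a total, and the study's list of ASOs for mice holds fewer than the labels name. The sex and age of the mice are not given in the sources used here, and the 7 libraries of AML12 hepatocytes were not analysed here.

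For each gene the deposited liver data hold the authors' mean normalized count, a single mean over the compared libraries of both groups, and no values for single mice. The columns in which the authors compare the groups were not used, so nothing below is a difference between LL35 ASO and Luc ASO livers. With 1 pooled value per gene there is no spread between mice, and the depth of each library is unknown. The lowest mean normalized count among the listed genes was 15.6 and the median was 235. No row carries the symbol of the LL35 gene, 9030622O22Rik, and the knockdown was therefore not checked here. What the values do show is how strongly each endothelial gene was represented in these whole-liver RNA samples.

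Sinusoidal endothelial cells line the capillaries of the liver. They have open pores and no continuous basement membrane, and they clear waste molecules and small immune complexes from blood by endocytosis. They also send signals to hepatocytes, among them Wnt ligands and R-spondin that keep the hepatocytes around the central vein in their zone, and BMP ligands that control hepcidin and so iron. Their own identity depends on VEGF signalling and on transcription factors such as GATA4 and MAF. Because RNA came from whole liver, fewer cells of a type and less RNA per cell cannot be told apart in any of these values.

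To compare genes of different length, each mean normalized count was divided by the length of the gene's merged exons. All levels below are on this scale, as authors' mean normalized counts per kilobase of exon. The 34 members had a median level of 77.0, against 51.5 for all listed genes. Of the members, 23 lay at or above the median listed gene and 11 below it. Their levels spanned 258-fold, from 3.64 for Cd34 to 939 for Plpp3. By percentile among the listed genes, 2 members lay above the 90th, 7 between the 75th and 90th, 14 between the 50th and 75th, 7 between the 25th and 50th, and 4 below the 25th. Together the members made up 0.198% of the summed mean normalized counts.

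**Figure D1:**
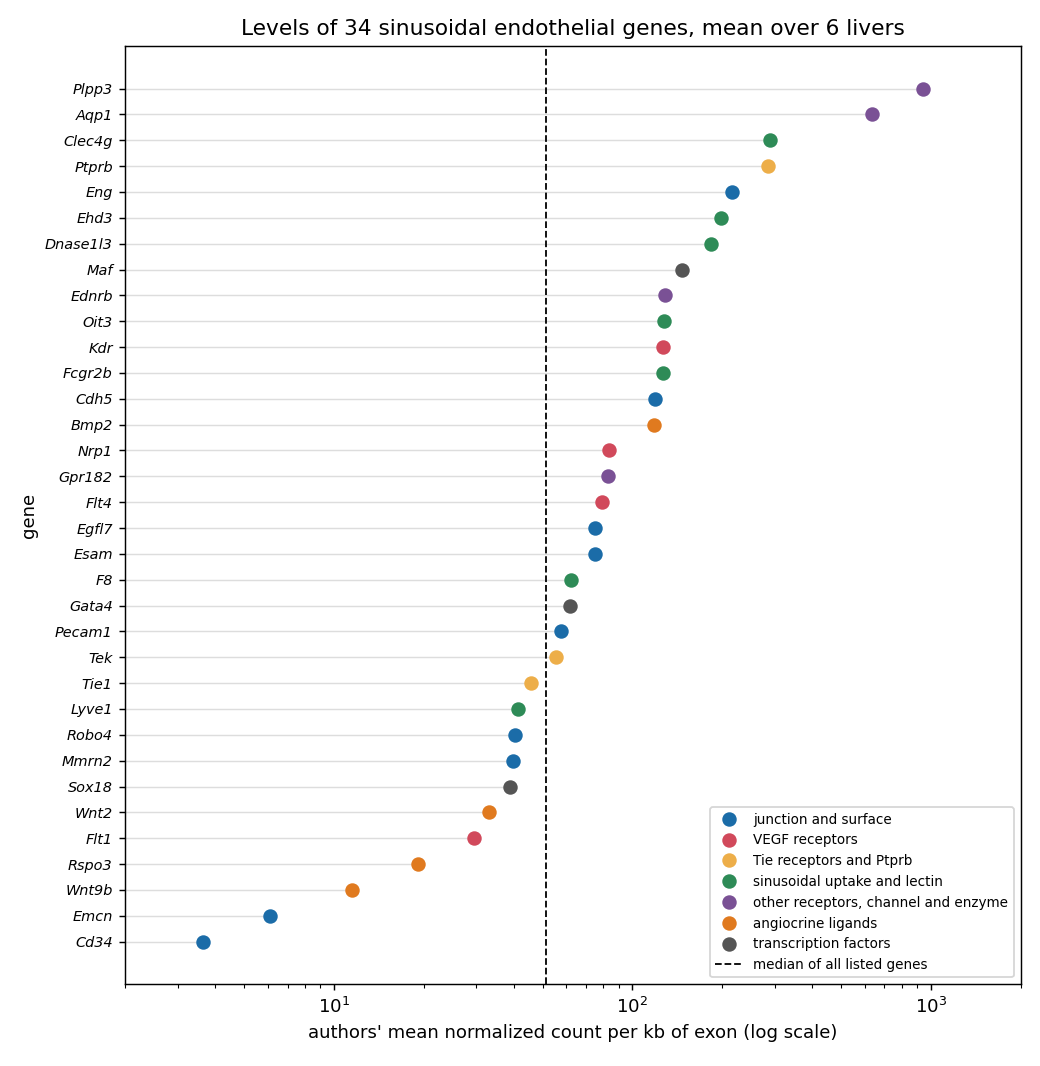
Level of each of the 34 members as the authors' mean normalized count per kilobase of exon (log axis), coloured by role, with the median of all listed genes (51.5) as a dashed line. Plpp3 and Aqp1 stand at the top, Clec4g and Ptprb follow near 289 and 284, and Emcn and Cd34 are lowest at 6.08 and 3.64; each point is a mean over both groups, so no error can be drawn.

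With coding length Maf stood 1.32-fold above Clec4g, and Dnase1l3 and Ehd3 were higher too (1016 and 811 against 807). Without division by length further members, Ptprb and Kdr among them, had higher counts than Clec4g (3792 and 1140 against 712). Per kilobase of exon, however, the 3 members with the highest level were Plpp3, Aqp1 and Clec4g. Their upstream sequences are shown with that of Wnt9b, a signal to hepatocytes with a low level, which was picked for its many CpG dinucleotides to show how far the members' promoters differ. Each is the 250 bases before the annotated start on the strand of the gene (RefSeq, GRCm38.p6), with CpG dinucleotides in capitals. The genome build behind the deposited counts is not given in the sources used here. Plpp3 lies at chr4:105157097-105157346 (+), Aqp1 at chr6:55336049-55336298 (+), Clec4g at chr8:3720652-3720901 (-) and Wnt9b at chr11:103749822-103750071 (-).
Plpp3: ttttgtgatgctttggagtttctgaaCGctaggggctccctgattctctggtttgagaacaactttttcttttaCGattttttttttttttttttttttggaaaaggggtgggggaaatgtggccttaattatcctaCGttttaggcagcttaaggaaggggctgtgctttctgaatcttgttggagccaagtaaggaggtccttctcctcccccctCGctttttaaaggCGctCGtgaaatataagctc
Aqp1: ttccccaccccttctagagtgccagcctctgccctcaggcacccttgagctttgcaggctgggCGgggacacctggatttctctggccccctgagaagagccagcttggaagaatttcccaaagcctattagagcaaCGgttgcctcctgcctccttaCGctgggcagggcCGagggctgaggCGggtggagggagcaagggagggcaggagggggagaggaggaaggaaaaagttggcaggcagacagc
Clec4g: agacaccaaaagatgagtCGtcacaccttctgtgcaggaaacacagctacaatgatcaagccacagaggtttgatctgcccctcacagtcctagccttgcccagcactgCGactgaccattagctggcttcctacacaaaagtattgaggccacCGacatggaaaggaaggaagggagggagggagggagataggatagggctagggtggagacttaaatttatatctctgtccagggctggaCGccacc
Wnt9b: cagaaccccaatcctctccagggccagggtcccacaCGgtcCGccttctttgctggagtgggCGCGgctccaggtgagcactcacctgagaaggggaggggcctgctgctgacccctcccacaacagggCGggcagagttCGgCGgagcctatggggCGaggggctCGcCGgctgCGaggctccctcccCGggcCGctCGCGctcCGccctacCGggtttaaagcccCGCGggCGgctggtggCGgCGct

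The upstream window of Clec4g held 4 CpG dinucleotides, that of Aqp1 held 5, that of Plpp3 held 6, and that of Wnt9b held 22. CpG content did not follow the level in these examples, since the windows of the lowest members, Emcn and Cd34, held 1 and 6. Promoters of 20 members could be matched by symbol. Their median was 6 CpG dinucleotides, against 16 over the 9335 listed genes with a promoter in the table. In 14 of the 20 the number was below 16, as it was for 49.2% of all these promoters. The members with 16 or more were Ehd3, Flt1, Flt4, Kdr, Wnt2 and Wnt9b. The GC content was close to that of other genes, with a median of 59.0% against 59.6%. The letters of the core to which ETS factors bind, AGGAAG or CGGAAG on either strand, were found in 11 of the 20 windows (55.0%) and in 46.3% of all. A GATA word, AGATAA on either strand, was in 0 of the 20 windows and in 5.99% of all. A SOX word, ACAATG on either strand, was in 1 window (5.00%, that of Clec4g) and in 5.97% of all. A TATA box word, TATAAA on either strand, was in 2 windows, those of Clec4g and Flt1 (10.0%), and in 6.67% of all. These are matches of letters, and the promoters of Bmp2, Cdh5, Dnase1l3, Esam, Gata4, Gpr182, Lyve1, Maf, Mmrn2, Oit3, Pecam1, Ptprb, Rspo3 and Sox18 were not matched.

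Among the genes of uptake and clearance, the lectin Clec4g had the highest level per kilobase of exon. The 7 genes of this group had a median of 128, which is 1.66 times the median of all members. Clec4g, a C-type lectin of sinusoidal endothelium, stood at 289. Ehd3, which takes part in the traffic of endocytic membranes, had a level of 198, and Dnase1l3, a secreted nuclease that degrades chromatin in blood, had a level of 183. Oit3 had a level of 128 and Fcgr2b, the inhibitory Fc receptor for IgG, one of 126. Per kilobase of exon these 5 genes all lay at or above the 74.5th percentile of the listed genes. Oit3 was at the 57.4th percentile with coding length and at the 61.2nd without division by length. F8, which encodes coagulation factor VIII, followed with 62.1 and Lyve1, a hyaluronan receptor, with 41.4. Lyve1 was thus the lowest of this group, at the 43.4th percentile and below the median listed gene, and Clec4g exceeded it 6.98-fold. With coding length the ends of this order changed, since the ratio of Clec4g to Dnase1l3 went from 1.58 to 0.794 and that of Lyve1 to F8 from 0.668 to 1.43. The stabilins, scavenger receptors of the same cells that are not members, had levels of 248 for Stab2 and 183 for Stab1, and the mannose receptor Mrc1 had a level of 217. The part of other liver cells in the levels of Fcgr2b, the stabilins and Mrc1 was not tested.

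Plpp3, Aqp1, Ednrb and Gpr182 form a group of receptors, a channel and an enzyme. Plpp3, a phosphatase of lysophosphatidic acid and other lipids, had the highest level of all members, 939, at the 96.2nd percentile. Aqp1, a water channel, had a level of 637. Plpp3 stood 3.25-fold and Aqp1 2.21-fold above Clec4g, the third highest member, and both also led all members with coding length. Ednrb, the endothelin B receptor, had a level of 129, and Gpr182, an atypical chemokine receptor, one of 82.8. Other liver cells are known to express several of these genes, Plpp3 in hepatocytes and Aqp1 in the bile duct epithelium among them, and the part of such cells in the values was not tested. The genes of the ligands of Ednrb, Edn1, Edn2 and Edn3, are not among the listed genes. Adm, the gene of another peptide, adrenomedullin, was set on the same list of ligands and had a level of 10.3. Its mean normalized count, 16.6, was close to the lowest among the listed genes, 15.6.

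Among the VEGF receptors Kdr had the highest level and Flt1 the lowest. Kdr, the main signalling receptor for VEGF-A, stood at 126 and Nrp1, a co-receptor, at 83.2. Flt4, known from lymphatic vessels and also found in the sinusoid, stood at 78.9, and Flt1, a receptor that can act as a decoy, at 29.6. Kdr exceeded Flt1 4.27-fold and Flt4 1.60-fold. With coding length in place of exon length these ratios were 2.83 and 1.78, while that of Kdr to Nrp1 went from 1.52 to 0.961 and so turned. Of the ligands, Vegfa had a level of 404 and was 3.20 times that of Kdr. Vegfb had a level of 39.3, Vegfc of 14.0 and Vegfd of 10.9, and Pgf is not among the listed genes. The ligand at the highest level was thus the one that binds Kdr and Flt1. Vegfc, a ligand of Flt4, had a lower level than that receptor, with a ratio of Flt4 to Vegfc of 5.63 (5.76 with coding length). Such ratios between ligand and receptor compare RNA of whole liver, and which cells the RNA came from was not tested.

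The receptors Tek and Tie1 had similar levels. Tek, the angiopoietin receptor, had a level of 55.5 and Tie1, its partner, of 45.9, a ratio of 0.827. Ptprb, the phosphatase that acts on Tek and on VE-cadherin, had a level of 284, which was 5.12 times that of Tek, and 7.13 times with coding length. The plain mean normalized count of Ptprb, 3792, was the highest of all members, and its merged exons are the second longest at 13333 bases. None of the 3 angiopoietin genes Angpt1, Angpt2 and Angpt4 is among the listed genes, so ligands of Tek could not be set beside the receptor.

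The junction and surface genes, by which endothelium of any organ is often recognised, spread most widely. Eng (endoglin, a co-receptor for BMP ligands) led with 215, and Cdh5 (VE-cadherin) followed with 119. Egfl7, a secreted factor, had a level of 75.2, Esam, an adhesion molecule of tight junctions, of 75.05 and Pecam1 (CD31) of 57.7. These 5 genes lay above the median listed gene, and the ratio of Cdh5 to Egfl7 went from 1.58 to 0.659 with coding length. Robo4, a guidance receptor, had a level of 40.3 and Mmrn2, a protein of the endothelial matrix, of 39.9. The sialomucins Emcn and Cd34, which are prominent on continuous and venous endothelium, had the lowest levels of all members, 6.08 and 3.64. Their mean normalized counts were 32.9 and 26.6, where the lowest count in the table was 15.6. Clec4g stood 5.01-fold above Pecam1 and 4.93-fold with coding length. The exons of Egfl7 overlap those of other genes, Agpat2 and the miR-126 genes among them, over 11.2% of their length. How reads from these parts entered its count was not examined.

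The signals to hepatocytes were at low levels except for Bmp2. Bmp2, which induces hepcidin in hepatocytes, had a level of 119, at the 73.1st percentile. Wnt2 had a level of 33.2, Rspo3, which strengthens Wnt signals, of 19.2 and Wnt9b of 11.5. These 3 genes, which are known from the endothelium around the central vein, lay at the 37.1st, 23.4th and 13.7th percentiles. Their mean normalized counts were 74.8, 59.3 and 51.9. Wnt2 exceeded Wnt9b 2.89-fold, and 1.44-fold with coding length, while the ratio of Rspo3 to Wnt2 went from 0.578 to 1.03. Exons of Rspo3 overlap those of Gm48159 on the other strand over 13.1% of their length, and the use of strand in the counting is not given in the sources used here.

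The receptors for these signals were listed for the most part. Of the 13 genes of Wnt and R-spondin receptors and their regulators, 12 are listed, and Fzd2 is not. The highest was the co-receptor Lrp6 with 189, followed by the R-spondin receptor Lgr4 with 182 and by Lrp5 with 153, and the lowest was Lgr5 with 7.49. Fzd4 had the highest level of the Frizzled receptors, 131. The median of the 12 was 52.3, above each of the levels of Wnt2, Rspo3 and Wnt9b. Of the BMP genes, Bmp6 had a level of 28.0, so that Bmp2 exceeded it 4.23-fold. Gdf2, which encodes BMP9, had a level of 90.9, Bmp10 of 25.5 and Bmp4 of 14.8. The hemojuvelin gene Hjv, a BMP co-receptor of hepatocytes, had the highest level of that list, 207, and Acvrl1, the receptor for BMP9 on endothelium, the lowest, 13.3.

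**Figure D2:**
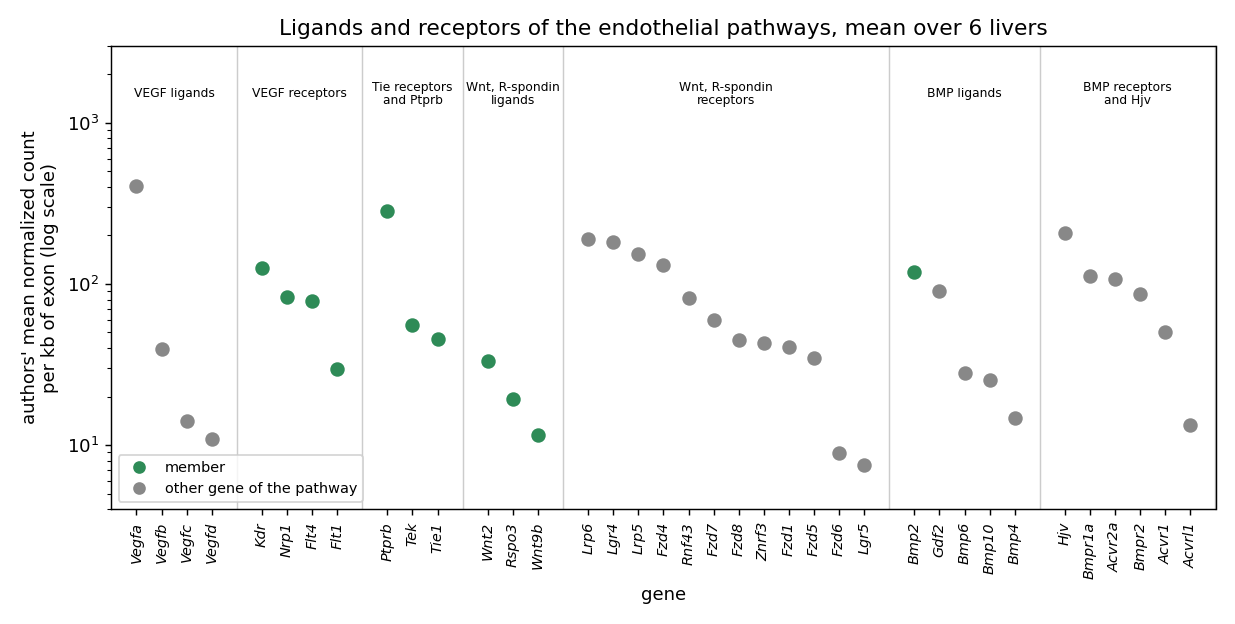
Levels of ligand and receptor genes of the VEGF, Tie, Wnt and BMP pathways as the authors' mean normalized count per kilobase of exon (log axis), with members in green and other genes of the pathways in grey. Vegfa (404) stands above all VEGF receptors, whereas Wnt2, Rspo3 and Wnt9b (33.2, 19.2 and 11.5) stand below most of the receptors beside them. All values are from whole-liver RNA, and the cells that the RNA came from were not tested.

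Of the transcription factors, Maf had the highest level. Maf stood at 147, Gata4 at 61.9 and Sox18, a factor of blood and lymph vessels, at 38.9. Maf exceeded Gata4 2.38-fold and 5.84-fold with coding length. Maf is also expressed by macrophages and Gata4 by stellate cells, and the part of these cells was not tested. All 13 other endothelial transcription factors on the list are among the listed genes, with a median level of 16.9. Ets1 was the highest with 79.3, and Klf2, a factor induced by blood flow, had a level of 74.9. Erg and Fli1, ETS factors of endothelium, had levels of 26.8 and 24.5, and the lowest was Mecom with 1.73.

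Further endothelial genes lay in the same range as the members. Of 25 such genes, 24 are listed, all except Selp, with a median of 61.7. The highest was the lysosomal protease Ctsl with 553, a gene that hepatocytes express too, and the lowest was Icam2 with 12.9. Vwf, the gene of von Willebrand factor, is known from large vessels more than from the sinusoid and had a level of 17.3. Plvap, a protein of endothelial diaphragms, had a level of 149.6. Of the Notch genes, Notch2 was the highest with 169 and Notch4, a receptor of endothelium, the lowest with 13.2, while Dll4 had a level of 13.4 and Jag2 is not among the listed genes.

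Markers of other cells of the liver were set beside the members as a check of what the samples held. The 10 hepatocyte markers were far higher, with a median of 19551, which is 254 times the median of the members, and 14.0% of the summed mean normalized counts. Alb, the albumin gene, was the highest with 519843, and Hnf4a, a transcription factor, the lowest with 2550.1. The 10 markers of Kupffer cells and other macrophages had a median of 241, from 55.4 for Timd4 to 791 for Clec4f. Of 10 stellate cell markers 9 are listed, with a median of 58.9. The highest was Ecm1 with 413, the lowest Des with 13.8, and Ngfr is not listed. By these medians per kilobase of exon the members stood between the stellate and the Kupffer cell lists, and far below the hepatocyte list. Their place between the first 2 of these lists depended on the settings. Without division by length the median percentiles lay close together, at 61.8 for the stellate list, 62.6 for the members and 65.9 for the Kupffer cell list. Without the 9 members that other liver cells are also known to express, the members' median level was 62.1, near that of the stellate list.

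Few markers of bile duct, lymphoid and neutrophil cells are listed. Of 7 cholangiocyte markers only Spp1 (91.9) and Sox9 (9.94) are, and the defining keratins Krt7 and Krt19 and Epcam, Tspan8 and Cldn7 are not. Of 8 T and NK cell markers only Cd3e is listed, with 4.56, while Cd3d, Cd3g, Cd4, Cd8a, Nkg7, Klrb1c and Gzma are not. Of the B cell markers, Ighm is listed, with 26.6, while Cd79a, Cd79b and Ms4a1 are not. Of 5 neutrophil markers S100a9 (35.9), S100a8 (33.1) and Csf3r (12.7) are listed, and Retnlg and Cxcr2 are not. Of 5 lymphatic endothelial markers 2 are listed, Prox1 with 490 and Reln with 76.8, which are known from hepatocytes and stellate cells as well. Pdpn, Mmrn1 and Ccl21a are not listed. Since only listed genes could be members, the presence of all 34 is no check of the label.

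**Figure D3:**
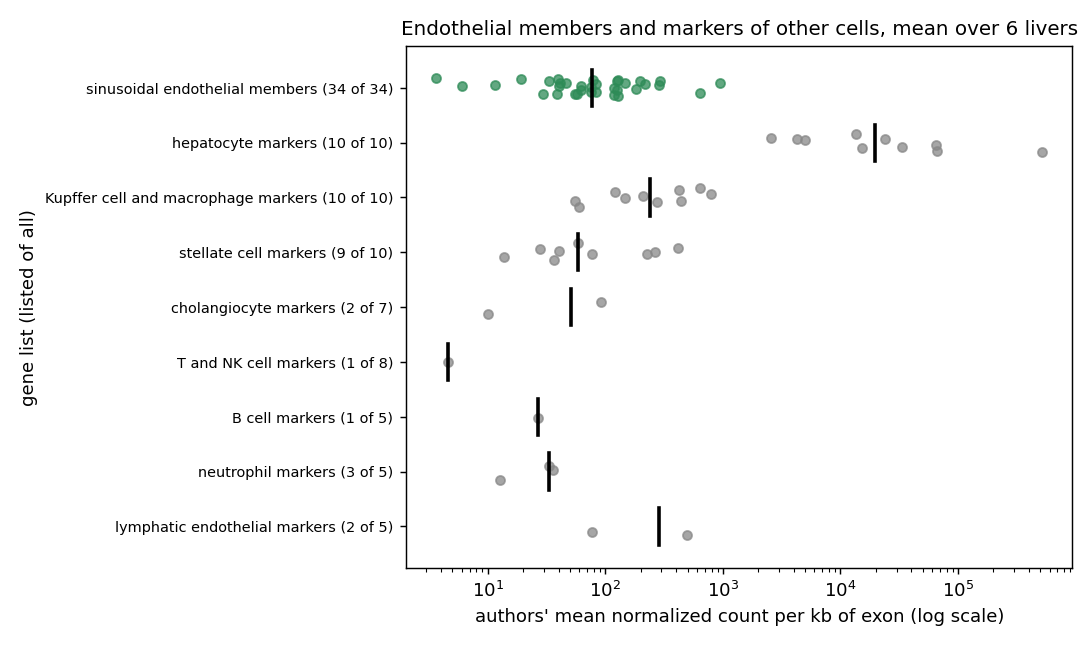
Levels of the 34 endothelial members (green) and of the listed markers of other cells (grey) as the authors' mean normalized count per kilobase of exon (log axis). Black bars are medians, and the numbers in parentheses give listed genes of all genes on the list; the members (median 77.0) lie below the hepatocyte list (19551) and the Kupffer cell list (241).

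The order of the members depends in part on the length used. Merged exons ranged from 1620 bases for Sox18 to 13504 bases for Flt1. Of the 561 pairs of members, 57 changed their order when coding length was used instead. Among the 362 pairs that differed by at least 2-fold, 6 did so, and the largest ratio that turned was 2.39. Of the 10 highest members, 9 were also among the 10 highest with coding length. F8, Tek and Tie1, whose exons are mostly coding, fell to the 32.4th, 29.4th and 26.0th percentile, from the 55.1st, 52.1st and 46.5th. Maf, with a coding length of 1140 bases in 8241 bases of exon, moved from the 78.0th to the 89.0th percentile. Without a spread between mice, neighbours in the order, such as Clec4g and Ptprb or Tek and Tie1, cannot be separated.

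**Figure D4:**
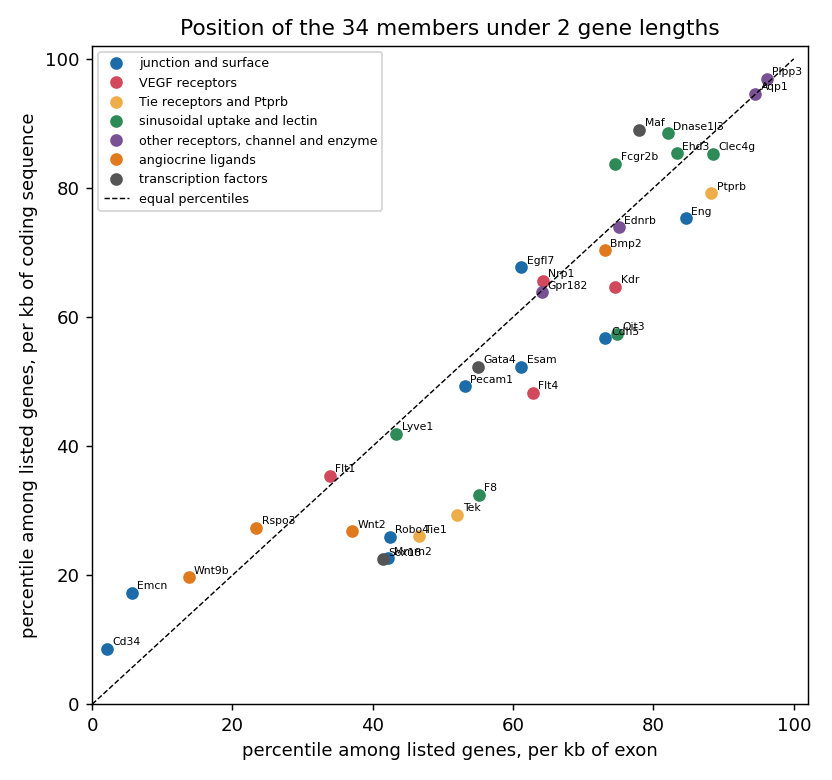
Percentile of each member among the listed genes with levels per kilobase of merged exon (horizontal) and per kilobase of coding sequence (vertical), coloured by role, with equal percentiles as a dashed line. Plpp3 and Aqp1 stay at the top and Cd34 at the bottom on both axes, while F8, Tek and Tie1 lie well below the line.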

How the data were processed

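RNA-seq libraries of 6 livers, 3 per group, were used. According to the methods and the processing notes, the authors aligned reads with STAR 2.5.3a, which also counted them per gene of an Ensembl annotation, and scaled the counts by RLE in DESeq2. The signal used here is the authors' deposited mean normalized count of each gene, averaged over both groups and not divided by length. The other deposited columns hold the authors' comparison of the groups (log2 fold change, its standard error, the Wald statistic and p-values) and were not used, so no test was run. Library depth is unknown, and the genome build and annotation release are not given in the sources used here.

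Identifiers of 11754 of the 11779 listed genes, all 34 members included, were found in GENCODE release M21, from which merged exon and longest coding lengths were taken. The percentile of a gene is the share of these genes with a lower level. Promoters came from RefSeq (GRCm38.p6) by symbol, using the 250 bases upstream. Members and gene lists were chosen with earlier results of these data known. Every member is named, with the highest and lowest listed gene of each other list; further genes of those lists were named after their values were seen. Steps were tested on simulated data and ran under Python 3.11.15 with numpy 2.4.6, pandas 2.3.3 and matplotlib 3.10.9. Alternatives changed the length, the background genes and the members.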

Additional observations from a re-analysis of the deposited data

How the results depend on the processing

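The median percentile of the 34 members among the listed genes was 62.0 per kilobase of exon. It was 54.5 per kilobase of coding sequence, 62.6 without division by length and 61.7 among protein-coding genes. When genes whose mean count was under 50 were left out it was 56.9, and Emcn and Cd34 were then left out too. These are the lowest members, so that median is over the other members only. The median of the members counted thus stayed above the middle of the listed genes under these 4 alternatives. The median level of the members was 77.0 per kilobase and became 62.1 without the 9 members that other liver cells are also known to express. These 9 were Aqp1, Ednrb, Eng, Fcgr2b, Gata4, Maf, Nrp1, Plpp3 and Rspo3. Without division by length, the median percentile went from 99.8 to 99.7 for hepatocyte markers, from 85.9 to 65.9 for Kupffer cell and macrophage markers, from 53.8 to 61.8 for stellate cell markers, from 39.4 to 25.7 for cholangiocyte markers, from 3.47 to 1.94 for T and NK cell markers, from 30.9 to 15.8 for B cell markers, from 37.0 to 4.50 for neutrophil markers and from 77.5 to 94.8 for lymphatic endothelial markers. No paired analysis was possible because the deposited values are means over all compared livers, and for the same reason no mouse could be left out in turn. How far levels vary between mice, or between LL35 ASO and Luc ASO livers, is not known from these values.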
